A study of Mus musculus with 2 samples.

Results

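The genes described here license DNA replication: the 6 subunits of the MCM helicase, Mcm2 to Mcm7, with Mcm10, Cdc6, Cdt1 and Cdc45. They were chosen by the gene name that the array files give each probe, which found all 10 genes and 12 probes among 28582 named genes and 39429 probes on the array. Their levels were compared in mouse liver on 2 one-colour arrays. One array held RNA of Pnpla8-/- animals (KO), which lack a phospholipase that cuts fatty acids from membrane phospholipids, and the other held RNA of WT animals. Both groups were C57BL/6N liver with no treatment in the labels. RNA of 5 animals was pooled for each array; their age is 6 weeks in the sample labels and 8 weeks in the design text of the series.

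Before a cell copies its DNA, the origin recognition complex marks the sites where copying can start, and Cdc6 and Cdt1 load the ring of Mcm2 to Mcm7 onto the DNA there. This loading is called licensing. On entry into S phase, kinases switch the ring on, and Cdc45 and the GINS complex join it to form the moving helicase, with Mcm10 needed for its activation. Transcription factors of the E2F family drive many of these genes, so their transcripts are abundant in cycling cells and scarce in resting hepatocytes. In bulk liver RNA, fewer cycling cells and less transcript per cell cannot be told apart.

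Of the 10 genes, 9 were measured, meaning well above background on both arrays, and 6 of these were at least 2-fold lower in the KO pool. The 6 were Mcm5, Mcm2, Mcm6, Cdt1, Mcm4 and Mcm3. Among the 18757 measured genes of the array, 363 (1.94%) passed 2-fold on the lower side and 237 (1.26%) on the higher side. None of the licensing genes was at least 2-fold higher. Their median log2 ratio of KO over WT was -1.04, beside 0.04 over all measured genes. With 1 array of pooled RNA per genotype there was no replicate check and no test across samples, so 2-fold is a fixed size and not a test. The number of arrays limits the precision.

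The whole arrays set the scale of these values. The share of the 43020 non-control spots well above background was 65.6% on the KO array and 70.1% on the WT array, with 0 saturated. The signal at the 75th percentile, which set the scale of each array, was 1018 on the KO array and 1207 on the WT array. The error of a log2 ratio given below combines the errors that the scanner software deposited for both spots. It is a technical error that the software gives and says nothing of the spread between animals. For bright licensing probes the deposited error was nearly the same share of the signal, so most licensing genes had a log2 error of 0.20. Distances counted in this error are therefore close to distances in a constant, not in a spread measured between spots. Probes spotted 10 times had a median SD of their log2 ratio of 0.04, and different probes of a gene one of 0.10 (4286 genes). Pnpla8 read 4.45 in the KO pool, not well above background, against 144.5 in the WT pool, which made it at least 6.81-fold lower. The sources used here do not say whether its single probe lies in the deleted part. Hepatocyte markers marked both pools as liver: 11 of 12 were measured, and Tf had no probe under that name. After scaling, 10 of the 11 had log2 ratios above 0, with a median of 0.23. Their scaled signals summed to 2708 in the KO pool and 2145 in the WT pool, and their unscaled signals to 2758000 and 2588000. Before scaling, Serpina1a, Cps1, Ass1 and Cyp2e1 read higher in the KO pool. Alb, Apoa1, Apob, Ttr, Fgb, Hnf4a and G6pc then read lower there, so the sign of several of these ratios depended on the scaling.

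The helicase subunits are ATPases that form a ring of 6 different proteins, and all 6 transcripts were lower in the KO pool. Mcm5, whose contact with Mcm2 forms the gate through which DNA enters the ring, had a processed signal of 229 ± 23.2 in the KO pool, against 899 ± 89.9 in the WT pool. The error after the sign is that of the scanner software, for 1 spot on 1 array. Mcm5 was the lowest of the measured licensing genes, 3.31-fold lower with a log2 ratio of -1.73 ± 0.21, and 38 of the 18757 measured genes had a lower ratio. Mcm2, the other side of the gate and a histone-binding subunit, read 120.4 ± 13.05 in the KO pool, against 389 ± 39.2 in the WT pool. That is a 2.73-fold lower level and a log2 ratio of -1.45 ± 0.21. Mcm6 read 1965 ± 196.5 in the KO pool, against 5738 ± 574 in the WT pool, which is 2.46-fold lower. Its log2 ratio was -1.30 ± 0.20. Mcm5, Mcm2 and Mcm6 lay below the 2-fold line by 3.54, 2.10 and 1.48 of their own errors.

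Mcm4 and Mcm3 stood at the 2-fold line. Mcm4, which with Mcm6 and Mcm7 makes up the part of the ring with helicase activity on its own, read 749 ± 75.1 in the KO pool, against 1832 ± 183 in the WT pool. It was 2.06-fold lower, with a log2 ratio of -1.04 ± 0.20. Mcm3, the subunit through which Cdc6 recruits the ring, was 2.01-fold lower by the median of 2 probes. One Mcm3 probe read 688 ± 68.9 in the KO pool, against 1705 ± 170.5 in the WT pool, and the other read 662 ± 66.3 in the KO pool, against 1522 ± 152 in the WT pool. Their log2 ratios were -1.06 and -0.96, so 1 of the 2 was past 2-fold. Their distance below the line was 0.22 of an error for Mcm4 and 0.05 of an error for Mcm3, and 0.70 for Cdt1, described below.

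The 2 Mcm3 probes are not independent readings. They overlap by 43 of their 60 bases, and in the overlap they differ by 1 base, A31G, counted from the 5′ end of the first probe. The 30 bases around that base are shown because the probes were listed under different transcript records, NM_008563 for the first and AK088142 for the second. The differing base is in capitals.
Mcm3 first probe: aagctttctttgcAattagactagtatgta
Mcm3 second probe: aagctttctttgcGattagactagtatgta

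Mcm7 was the helicase subunit nearest to the WT level. It read 1491 ± 149 in the KO pool, against 2901 ± 290.1 in the WT pool, with a log2 ratio of -0.71 ± 0.20, so it was 1.64-fold lower and short of 2-fold. The array file places its probe at chr16:53986163-53986222 in mm9, the build named in the file header, whereas the RefSeq table puts the Mcm7 gene on chromosome 5. Of 27073 probes whose chromosome could be compared in this way, 746 (2.76%) were placed on another chromosome than their gene. What the Mcm7 probe reads was not tested. The other 11 probes lay on the chromosome of their gene, among them those of Mcm5 (chr8:77651350-77651410), Mcm2 (chr6:88833619-88833678), Mcm6 (chr1:130228178-130228237) and Mcm4 (chr16:15624372-15624431), all in mm9. No mm9 annotation was used here, so exons and introns under the probes are not given.

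**Figure D1:**
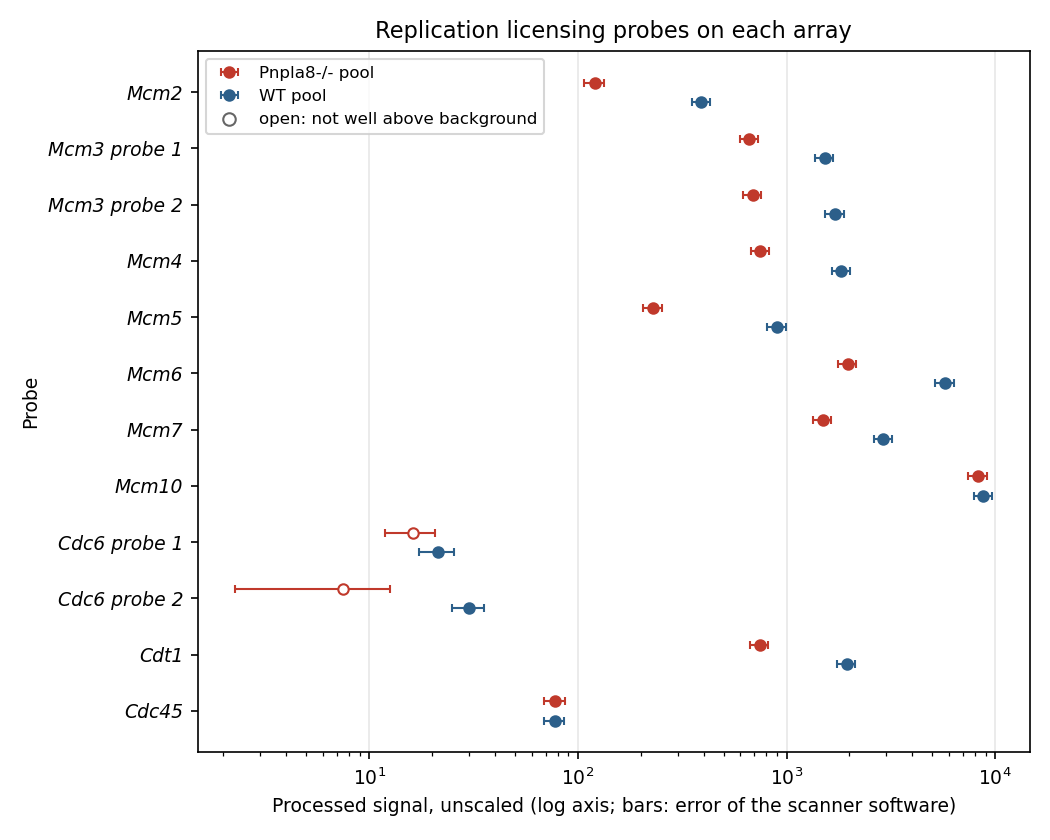
Processed signal of each licensing probe (x axis, log scale, arbitrary units, not scaled between arrays) with the error given by the scanner software (bars), in the Pnpla8-/- pool (red, upper point of each row) and the WT pool (blue, lower point), 1 array each. Mcm3 and Cdc6 have 2 probes; open points were not well above background. The KO point lies left of the WT point for every probe of Mcm2 to Mcm7 and for Cdt1, while the points of Mcm10 and Cdc45 lie over each other within their errors.

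Of the loading factors, Cdt1 was lower and Cdc6 was too dim to read well. Cdt1, which carries the ring to the origin, read 742 ± 74.3 in the KO pool, against 1943 ± 194 in the WT pool. It was 2.21-fold lower, with a log2 ratio of -1.14 ± 0.20. Cdc6, the ATPase that loads the ring together with the origin recognition complex, was well above background in the WT pool alone. Its probes read 7.46 ± 5.18 and 16.2 ± 4.38 in the KO pool, against 30.1 ± 5.13 and 21.4 ± 4.03 in the WT pool. Taking 17.9, the smallest KO signal still well above background, as the floor, these make Cdc6 at least 1.42-fold lower by one probe and at least 1.01-fold lower by the other. These bounds leave out the errors of the scanner software, and such signals are too near the floor to say whether Cdc6 reached 2-fold.

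Of the activating factors, Mcm10 and Cdc45 stood apart from the subunits, while some others, given below, were lower, such as Gins2 at -0.83. Mcm10, which helps switch the loaded ring on, read 8257 ± 826 in the KO pool, against 8761 ± 876 in the WT pool, with a log2 ratio of 0.16 ± 0.20. Cdc45, a stable part of the moving helicase, read 77.3 ± 8.93 in the KO pool, against 77.4 ± 8.55 in the WT pool, with a log2 ratio of 0.24 ± 0.23. The ratio of Mcm10 lay within its error of 0, and that of Cdc45 was about the size of its error. Their sign depended on the scaling: without scaling they were -0.09 for Mcm10 and -0.002 for Cdc45, and with the spike-in controls as the scale Mcm10 was at -0.02. Both genes have 1 probe each, and that of Mcm10 was the brightest licensing probe on both arrays. Why it was so bright was not tested.

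In the order of log2 ratios, from Mcm5 through Mcm2, Mcm6, Cdt1 and Mcm4 to Mcm3, no neighbouring pair differed by more than its combined error. Mcm3 and Mcm7 differed by 0.29 with a combined error of 0.29, a gap at the size of the error. Mcm7 and Mcm10 differed by 0.88 with a combined error of 0.29, the widest gap in the order. Within the ring, Mcm7 was 1.01 above Mcm5 with the same combined error of 0.29. The log2 ratios of the 6 subunits spanned -1.73 to -0.71, with a median of -1.17.

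**Figure D2:**
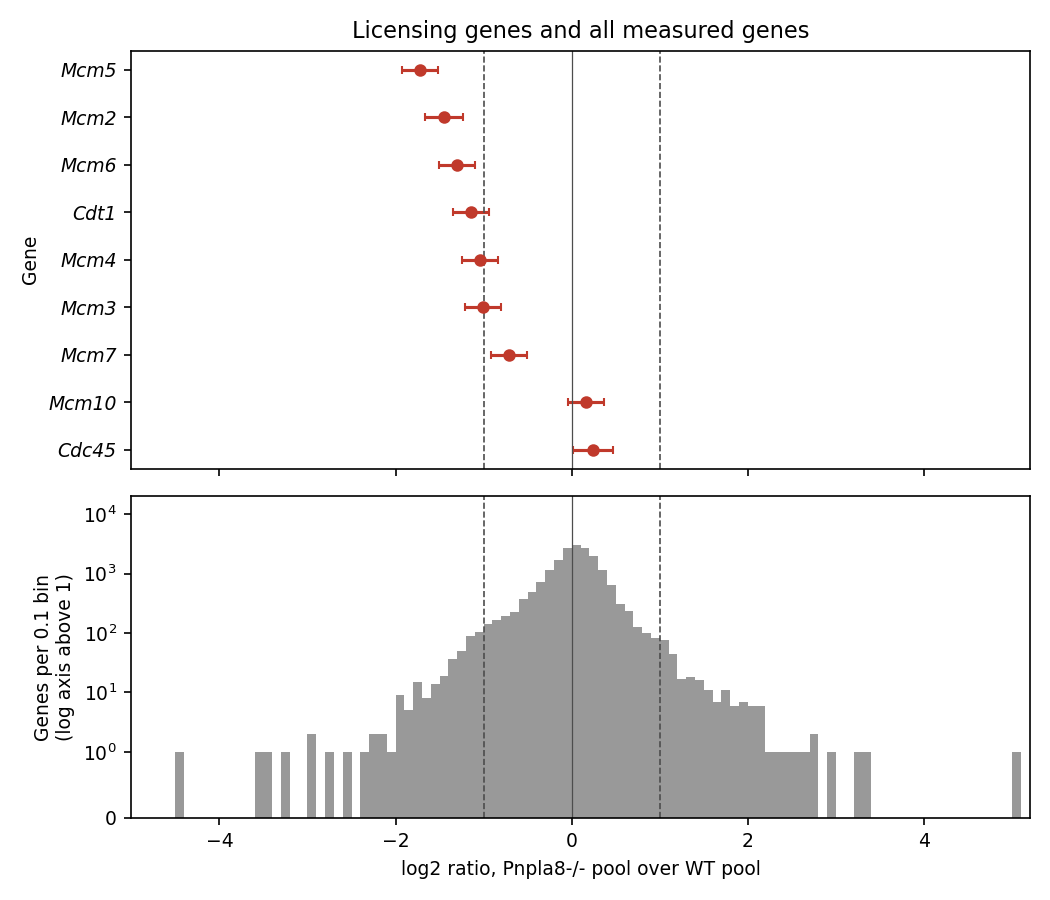
Upper panel: log2 ratio of the Pnpla8-/- pool over the WT pool for the 9 measured licensing genes, with bars for the error from the scanner software; lower panel: the number of all 18757 measured genes in bins of 0.1 of the same ratio (log axis above 1 gene). Dashed lines mark 2-fold in either direction. Cdt1 and the Mcm genes other than Mcm7 and Mcm10 sit at or beyond the lower line, and Mcm10 and Cdc45 sit near the middle of the distribution.

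The promoters of these genes were examined because E2F factors are known regulators of the MCM genes and because most of the genes were lower together. RefSeq promoter windows of assembly GRCm38.p6, running from 250 bases before to 50 bases after the gene start, were held for 9 of the 10 genes; Mcm4 had none. Both strands were searched for the E2F letters TTTCCCGC, TTTCGCGC, TTTGCCGC and TTTGGCGC, where matches may overlap. A match was found for 6 of the 9, namely Mcm3, Mcm5, Mcm6, Mcm7, Cdc6 and Cdt1, against 2.60% of all 27025 genes with a window (2.26% of windows) and 31.7% of 82 genes of the other replication lists described below. A gene was counted when any of its windows held a match. Mcm7 had 2 windows, and its matches lay in 1 of them, with none in the other. Mcm2, Mcm10 and Cdc45 had no match to these letters in this window. The cell cycle letters TTTGAA were found in 2 of the 9, Mcm2 and Cdc45, beside 20.2% of all genes. The matches lying before the gene start are printed with the surrounding bases, on the strand of the gene, with the matched letters in capitals.
Mcm5, chr8:75109336-75109387, plus strand: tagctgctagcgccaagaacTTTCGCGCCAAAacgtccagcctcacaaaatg
Mcm6 first site, chr1:128359784-128359835, minus strand: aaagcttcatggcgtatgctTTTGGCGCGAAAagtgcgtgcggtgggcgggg
Mcm6 second site, chr1:128359725-128359772, minus strand: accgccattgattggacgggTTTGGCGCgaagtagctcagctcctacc
Mcm7, chr5:138172021-138172068, minus strand: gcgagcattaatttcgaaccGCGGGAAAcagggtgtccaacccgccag
Cdc6, chr11:98907993-98908040, plus strand: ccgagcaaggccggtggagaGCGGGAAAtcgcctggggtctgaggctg

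In Mcm5 and at the first site of Mcm6 a pair of matches on opposite strands overlap, and the block of capitals in one gene is the reverse complement of that in the other. The block began at position -153 from the start of Mcm5 and at position -110 from that of Mcm6. The matches in Mcm3 and Cdt1, and the second of Mcm7, lay after the gene start and are not printed. The 5 measured licensing genes with a match had log2 ratios from -1.73 to -0.71, and the 3 with a window and no match had -1.45 for Mcm2, 0.16 for Mcm10 and 0.24 for Cdc45. A match is a run of letters and not a shown binding site, and Mcm2 was among the lowest without one.

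The rest of the replication machinery was less shifted than the licensing genes by its counts. Of 105 genes in 9 other replication lists, 95 were measured, and 8 of them (8.42%) were at least 2-fold lower and 1 at least 2-fold higher. Their median log2 ratio was -0.19, with 67 of the 95 below 0. The 8 were Dtl, Uhrf1, Pole2, Chtf18, E2f2, Asf1b, Prim1 and Fen1, and the 1 was Cdkn1a. The following counts go by the step each list serves.

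The origin recognition complex, which marks the origins, showed no gene past 2-fold among 6 measured of 7, with a median of 0.01. Orc6 had a log2 ratio of -0.34, Orc2 0.27, its cofactor Lrwd1 -0.11 and Orc5 0.06, and Orc1 was not well above background on either array. Among genes of GINS and origin firing, 0 of 9 measured of 11 were past 2-fold, with a median of -0.23. Gins2 was the lowest at -0.83, followed by Dbf4, the regulator of the kinase that phosphorylates the ring, at -0.61, the scaffold Topbp1 at -0.60 and Recql4 at -0.23. The other GINS subunits were at 0.17 for Gins1, -0.08 for Gins3 and 0.14 for Gins4. Ticrr, which brings Cdc45 to the ring, was well above background in the WT pool alone. Its 2 probes read on average 6.86 in the KO pool, against 30.3 in the WT pool, near the floor. The largest bound among its probes made Ticrr at least 1.69-fold lower.

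Genes that restrain licensing went both ways. All 11 were measured, with a median of 0.07. Dtl, the substrate receptor of the ubiquitin ligase that destroys Cdt1 during S phase, read 24.2 in the KO pool, against 143.8 in the WT pool, which is 5.02-fold lower. Its log2 ratio of -2.33 was -1.06 with another background correction. Cdkn1a, the cyclin-dependent kinase inhibitor p21, has 2 probes, which read on average 312 in the KO pool, against 113.9 in the WT pool. Its ratio rests on the 1 measured probe, which was 3.31-fold higher. Skp2, part of another ligase for Cdt1, was at -0.82 and Fbxo5, an inhibitor of the anaphase-promoting complex, at -0.56. Geminin, the protein that binds and blocks Cdt1, is encoded by Gmnn and was at 0.17. Of the MCM relatives outside the ring, Mcm8, which acts in DNA repair, was at -0.22, and Mcm9 and Mcmdc2 were not well above background on either array.

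At the fork, the enzymes that follow the helicase were lower in part. Among replicative polymerases, 2 of 12 were at least 2-fold lower, with a median of -0.23. They were Pole2, a subunit of polymerase epsilon, at -1.58, and Prim1, the catalytic primase, at -1.21, beside Pold1 at -0.82 and Prim2 at -0.48. Among clamp, clamp loader and fork factors, 2 of 16 measured of 18 were past 2-fold, with a median of -0.21. These were Chtf18, of an alternative clamp loader (2.63-fold), and the flap nuclease Fen1 (2.02-fold), with Atad5, which unloads the clamp, at -0.94 and Rfc3 at -0.50. The sliding clamp Pcna was at -0.12. Clspn and Dscc1 were well above background in the WT pool alone.

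Supply and packaging of new DNA gave 2 calls. None of 9 measured genes of deoxynucleotide supply was past 2-fold, with a median of -0.15, where Rrm2, the regulated subunit of ribonucleotide reductase, was at -0.70 and thymidine kinase Tk1 at 0.66. Samhd1 was at -0.42 and Rrm2b at 0.38. Of 9 genes of replication-coupled chromatin, 2 were at least 2-fold lower, with a median of -0.39. Uhrf1, which brings the maintenance methyltransferase to new DNA, was 3.41-fold lower and the histone chaperone Asf1b 2.46-fold lower, with Hells at -0.81 and Asf1a at -0.49. The ratio of Uhrf1 rests on 1 measured probe of 2, and with no filter on dim probes its log2 ratio was -0.80. Among 22 measured of 24 regulators of entry into S phase, E2f2 alone was past 2-fold, 2.51-fold lower, with a median of -0.22. E2f8 followed at -0.98, cyclin A2 (Ccna2) at -0.91 and cyclin D1 (Ccnd1) at -0.75.

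**Figure D3:**
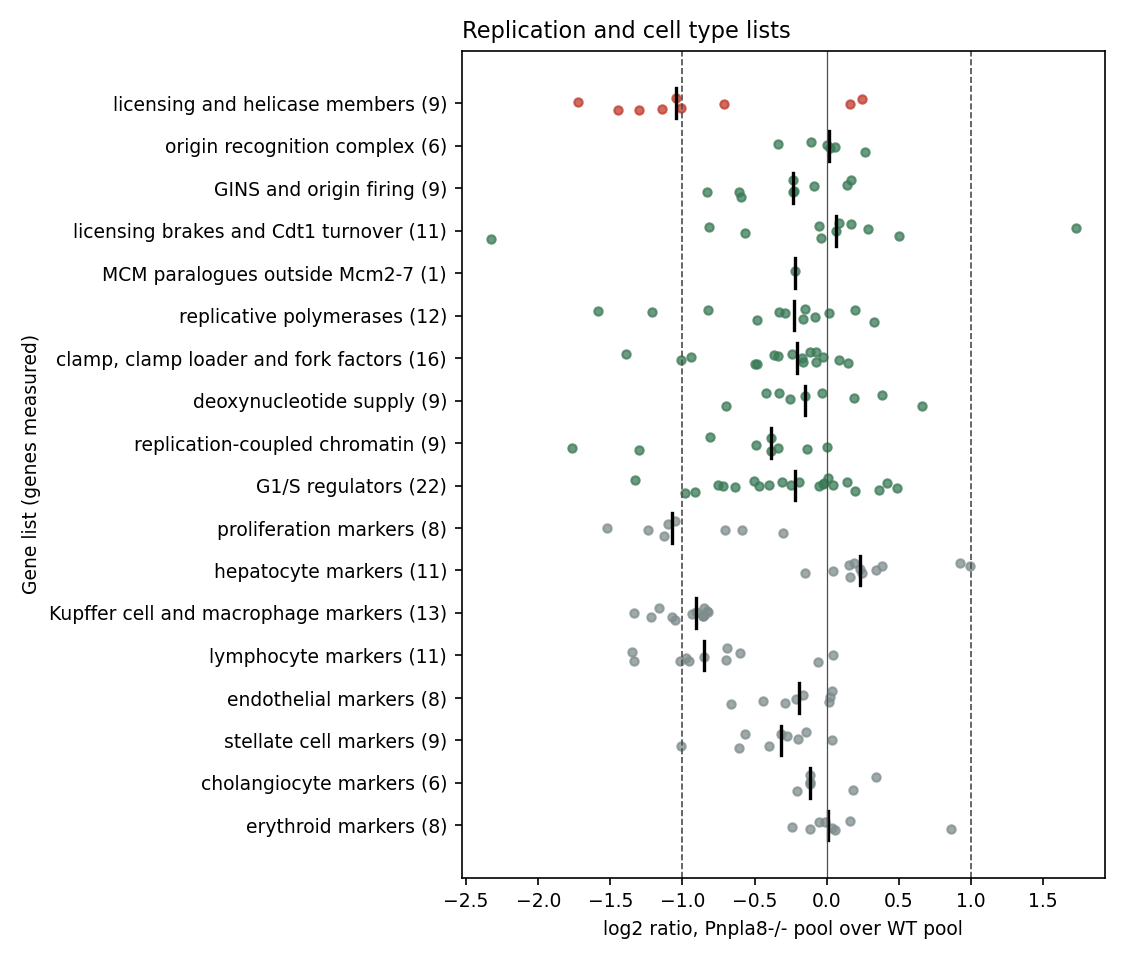
log2 ratio of the Pnpla8-/- pool over the WT pool for every measured gene (points) of the licensing genes (red), the other replication lists (green) and the cell type and proliferation markers (grey), with the median of each list (black bars); the number of measured genes is in brackets and dashed lines mark 2-fold. The vertical jitter of points carries no value. The medians of the licensing genes (-1.04) and of the proliferation markers (-1.07) lie left of those of the other replication lists.

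Markers of cycling cells and of immune cells were lower in the KO pool too. Of 10 proliferation markers, 8 were measured and all 8 had ratios below 0, with 5 at least 2-fold lower and a median of -1.07. Top2a was lowest at -1.52, then Aurka at -1.24, Mki67 at -1.13 and Ccnb1 at -1.10; their scaled signals summed to 2.86 in the KO pool and 5.09 in the WT pool. With the normexp background none of the 5 called markers stayed past 2-fold: Top2a was at -0.60, Ccnb1 at -0.71, Plk1 at -0.79, Mki67 at -0.98 and Aurka at -0.998, and Plk1 was also short of it with median scaling. Cdk1, named after its values were seen, was at -0.30, the median of 2 measured probes at -0.83 and 0.23. Ccnb1 rests on 1 measured probe of 3. Aurkb was not well above background on either array. All 13 Kupffer cell and macrophage markers were below 0, with 5 at least 2-fold lower and a median of -0.91, and their scaled signals summed to 60.6 in the KO pool and 122.8 in the WT pool. The 4 lowest were Marco (-1.34), Cd5l (-1.22), Adgre1 (-1.16) and Timd4 (-1.07); Timd4 was short of 2-fold with normexp, at -0.95, and the other called marker, C1qa, with median scaling, at -0.99. Of 13 lymphocyte markers 11 were measured, 10 of them below 0 and 3 at least 2-fold lower, with a median of -0.85 and sums of 15.4 in the KO pool and 17.6 in the WT pool. The sums weigh each member by its signal. Cd4, named after its values were seen, has 2 probes, which read on average 5964 in the KO pool, against 7764 in the WT pool. Their log2 ratios were -0.14 and 0.22, with a median of 0.04. Cd3e, also named after its values were seen, read 944 in the KO pool, against 1165 in the WT pool, with a log2 ratio of -0.06. The 3 past 2-fold were Cd3d (-1.35), Ms4a1 (-1.34) and Cd3g (-1.02). All 3 were short of 2-fold with normexp, at -0.87 for Cd3d, -0.71 for Ms4a1 and -0.43 for Cd3g, and Cd3g also with median and quantile scaling. Ptprc was not past 2-fold and Cd79b was at -0.97; Ncr1 was not well above background on either array and Cd8a on the WT array alone.

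Other cell types shifted less by their medians. Stellate cell markers had -0.32 over 9, 8 of them below 0, with sums of 49.5 in the KO pool and 50.9 in the WT pool and Acta2 2.01-fold lower. Most of these sums was Dcn, named after its values were seen, with a log2 ratio of 0.03. Unscaled, Dcn read 44470 of a sum of 50350 in the KO pool and 51470 of 61490 in the WT pool. Acta2 was short of 2-fold with median scaling, quantile scaling and normexp, where its highest log2 ratio was -0.84. Endothelial markers had -0.19 over 8, with sums of 46.6 in the KO pool and 51.0 in the WT pool. Cholangiocyte markers had -0.11 over 6, with sums of 0.950 in the KO pool and 0.999 in the WT pool. Erythroid markers had 0.01 over 8, with sums of 25.4 in the KO pool and 26.0 in the WT pool. The part of these cells in the licensing result was not tested, and which cells carry the licensing transcripts is not given by bulk RNA.

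The 2-fold calls of Mcm2, Mcm3 and Mcm4 depended on how background was removed or the arrays were scaled. Mcm5, Mcm6 and Cdt1 were at least 2-fold lower under all 14 settings run at that threshold. With the normexp background, which adds an offset to every signal, Mcm2 was at -0.99, Mcm3 and Mcm4 at -0.98, and 3 of 9 licensing genes were past 2-fold beside 0.666% of all measured genes. Scaling by the array median left Mcm3 at -0.95 and Mcm4 at -0.98, and 4 of 9 past 2-fold. The split of all genes moved with the scaling as well: without scaling 743 were lower and 109 higher, with spike-in scaling 626 and 120, and with median scaling 301 and 285. With the normexp background and the same scaling, 125 were lower and 130 higher. Without scaling the median of all measured genes was -0.21, and with spike-in scaling -0.14. Relative to the median of all measured genes, the licensing median was -1.08, a difference that these scalings cannot alter because each adds 1 constant to every log2 ratio.

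**Figure D4:**
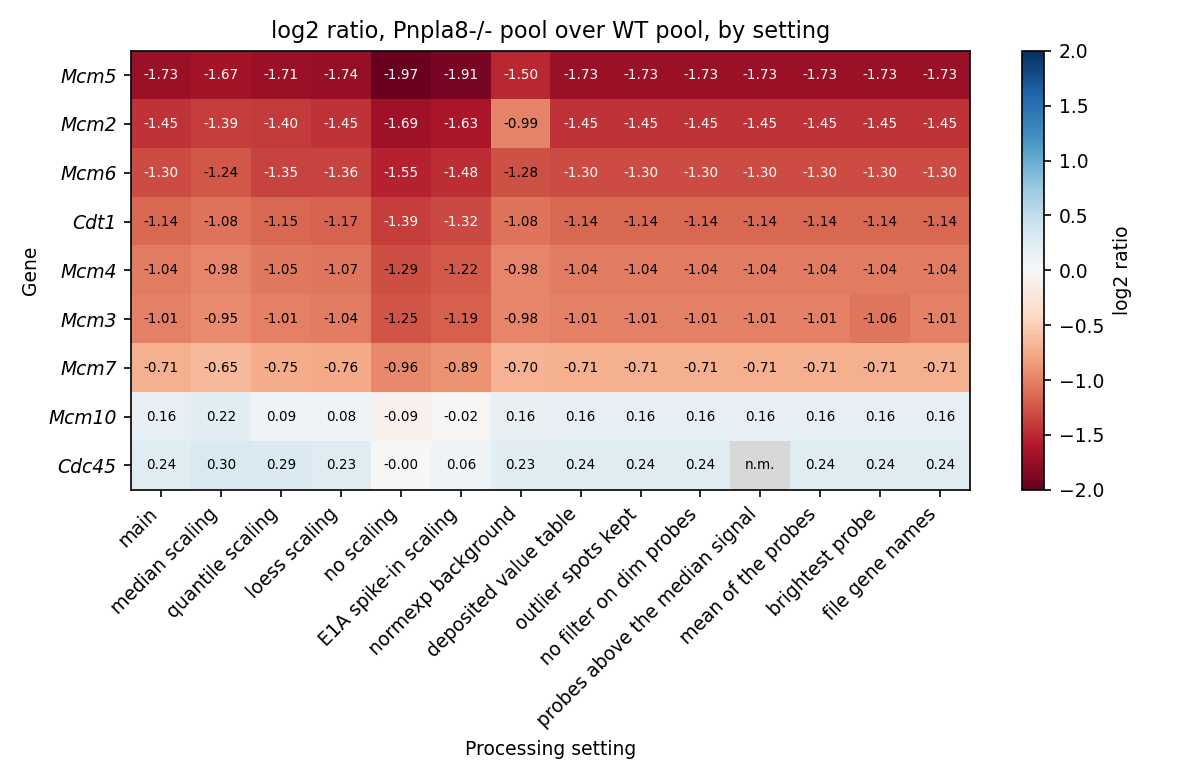
log2 ratio of the Pnpla8-/- pool over the WT pool for the 9 measured licensing genes (rows) under 14 processing settings (columns), the first being the one reported; colour and number give the ratio, and n.m. marks a gene not measured under that setting. Rows of Mcm5, Mcm6 and Cdt1 stay below -1 throughout, and those of Mcm10 and Cdc45 lie between -0.09 and 0.30.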

How the data were processed

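Per the labels' protocols, total liver RNA was purified on RNeasy columns, and Cy3-labelled RNA was made from 200 ng. The deposited intensity of each spot came from Agilent's Feature Extraction software (version 11.5.1.1 in the submitters' processing notes) and is linear, with background subtracted. The deposited value table held the same intensity divided by a constant per array, 1019 for KO and 1207 for WT, with column medians of 0.0763 and 0.0800. It is linear, not centred per gene and runs the same way; the sources used here do not say how the constants were set.

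Here the processed signals were put on a log2 scale and each array's 75th percentile was subtracted. Control spots and spots with an outlier mark (170 on the KO array, 119 on the WT array) were left out, and spots of 1 probe were averaged. For each gene the median ratio was taken of the probes whose spots were all well above background on both arrays. A gene seen on 1 array only was given a bound against the lowest signal well above background on the other. Of 39429 probes, 28330 were named through accessions and 2378 through symbols in the RefSeq table of GRCm38.p6, 8721 kept the file's name, and 2462 of these, named only by their own ID, entered no gene count.

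The members and lists were chosen with earlier results of these data known. Named genes were all members and, per list, up to 4 measured genes with the largest absolute ratio. Genes past 2-fold, those not measured, the remaining hepatocyte markers, a few other markers and a few subunits of complexes were added after their values were seen. The planned comparison of MCM proteins was not run. Alternatives were other scalings (array median, quantile, loess, spike-in controls, none), a normexp background (offset 50), the deposited table, other probe filters and summaries, file names and other folds. The scaling and the fold calls were tested on changes planted in bright WT signals of genes with a single probe, none of them at the 2-fold line. Background handling, the filter on dim probes and medians over several probes were not tested in this way. Tools were Python 3.11.15, pandas 2.3.3, numpy 2.4.6, statsmodels 0.14.6 (loess, span 0.3), matplotlib 3.10.9, R 4.3.3 and limma 3.58.1.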

Additional observations from a re-analysis of the deposited data

How the results depend on the processing

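No paired analysis was possible because each genotype had 1 array, and no replicate could be left out. The median of the licensing genes was -1.29 without scaling and -1.22 with spike-in scaling. Licensing genes past the line on the lower side numbered 3 with the normexp background and 1 at 3-fold. Genes of the other replication lists on that side numbered 15 without scaling, 13 with spike-in scaling, 4 with normexp, 5 among probes above the median signal, 21 at 1.5-fold and 2 at 3-fold. All measured genes on that side numbered 743, 626, 125 and 216 under the first 4 of these settings, 1148 with no filter on dim probes, 1151 at 1.5-fold and 54 at 3-fold. Of such summary values under the 15 alternatives, 41 stayed within 1.5 times (counts) or 0.10 (the median) of the value reported and 17 did not. No ratio past 2-fold in the licensing genes turned its sign. Of the other replication genes past 2-fold, Dtl, Cdkn1a, Prim1 and E2f2 stayed past it under every setting that measured them; Pole2, Chtf18 and Asf1b were short of it with normexp, Fen1 with normexp or median scaling, and Uhrf1 with no filter on dim probes. With no filter on dim probes Cdc6 had a log2 ratio of -0.96, from signals near the floor. The cause was not tested. The scaled log2 signal at the negative controls was -7.91 on the KO array and -8.44 on the WT array, which limits what dim genes such as Cdc6 can show.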

Other observations

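The E2F letters searched in the licensing promoters were also counted over the whole array. Of 498 measured genes with a RefSeq promoter window that held one of the letters, 13 (2.61%) were at least 2-fold lower in the KO pool, against 241 of 11789 (2.04%) without. Within the other replication lists, 4 of 24 measured genes with the letters were at least 2-fold lower, with a median log2 ratio of -0.33, and 4 of 51 without, with a median of -0.15. The 13 and the 241 include the licensing genes and the genes of the other replication lists. Of the measured licensing genes with a window, 4 of 5 with the letters and 1 of 3 without were at least 2-fold lower. Thus 4 of the 13 were licensing genes and 4 were genes of the other replication lists, against 1 and 4 of the 241. The shares of 2.61% and 2.04% therefore do not describe genes outside these lists, whose share was not counted separately. These counts describe 2 arrays and carry no test.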
